A study of Homo sapiens with 4 samples.

Results

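The Krüppel-like factors (KLF) KLF2, KLF3, KLF4, KLF5, KLF6, KLF7, KLF9, KLF10, KLF11 and KLF12 were followed across 4 microarrays of KGN cells, a human granulosa cell tumour line. The 10 genes were taken by name, and every probe set whose only annotated symbol was one of them was used. They were read by 36 of the 41097 probe sets with 1 gene symbol, and they were 10 of the 19775 genes measured in this way. The groups were siYT+8Br-cAMP, siYT, siNC+8Br-cAMP and siNC, with 1 array each. In siYT, cells received siRNAs directed at YAP and TAZ, each at 5 nM, and in siNC a control siRNA at 10 nM. The medium was changed 48 h after transfection to one holding 8Br-cAMP, an analogue of cyclic AMP that enters cells, at 0.5 mM, or to one without it, for a further 24 h. All groups were the same cell line, and the untreated groups were transfected too. With 1 array per group no difference has a replicate check, so differences are given as sizes with no p-value.

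KLF proteins are transcription factors that bind GC-rich and CACCC sequences through C2H2 zinc fingers at their C terminus, as do the related SP proteins. Their N-terminal parts differ and set the partners. KLF2, KLF4, KLF5, KLF6 and KLF7 are mainly described as activators, KLF3 and KLF12 recruit the co-repressor CtBP, and KLF9, KLF10 and KLF11 recruit SIN3A. Many KLF genes are immediate or early response genes with short-lived transcripts. YAP and TAZ are co-activators restrained by the Hippo pathway, and cyclic AMP is the messenger through which gonadotropins act on granulosa cells.

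The promoters of KLF2, KLF4 and KLF6 are shown because these 3 genes read at least 2-fold lower with 8Br-cAMP, both after knockdown and with control siRNA. Each sequence is the 250 bases upstream of the transcript start in RefSeq (GRCh38.p14), written 5′ to 3′ on the gene's strand. Capitals mark GC boxes (GGGCGG), a sequence bound by SP and KLF proteins, and the core of the cyclic AMP response element (TGACG), on either strand. KLF2 lies at chr19:16324576-16324825 on the plus strand, KLF4 at chr9:107489770-107490019 on the minus strand and KLF6 at chr10:3785210-3785459 on the minus strand.
KLF2: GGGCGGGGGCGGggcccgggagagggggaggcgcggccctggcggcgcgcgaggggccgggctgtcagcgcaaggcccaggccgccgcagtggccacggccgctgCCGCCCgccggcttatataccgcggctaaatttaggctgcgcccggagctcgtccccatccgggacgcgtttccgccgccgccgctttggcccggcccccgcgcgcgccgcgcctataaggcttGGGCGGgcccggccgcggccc
KLF4: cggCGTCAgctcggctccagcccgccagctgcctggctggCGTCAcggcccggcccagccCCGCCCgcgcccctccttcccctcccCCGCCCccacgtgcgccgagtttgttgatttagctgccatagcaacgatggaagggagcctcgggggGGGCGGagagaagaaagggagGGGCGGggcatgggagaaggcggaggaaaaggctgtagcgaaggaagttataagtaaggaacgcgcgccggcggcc
KLF6: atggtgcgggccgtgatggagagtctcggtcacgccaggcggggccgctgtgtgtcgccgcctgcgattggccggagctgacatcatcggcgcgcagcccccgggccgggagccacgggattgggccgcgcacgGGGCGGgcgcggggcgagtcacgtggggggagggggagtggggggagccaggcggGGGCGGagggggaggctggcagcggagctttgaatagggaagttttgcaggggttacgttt
The stretches hold 4 GC boxes for KLF2, 4 for KLF4 and 2 for KLF6, none of which overlap. The 2 copies of TGACG are both in KLF4.

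Over windows from 250 bases before to 50 bases after a start, the table held 16 windows of 8 KLF genes. The GC box was in 8 of the 16 windows, against 45.0% of 35116 windows of all genes, and the sequence CACCC was likewise in 8, against 59.9%. The core TGACG was in 3 of 16 windows (KLF4, KLF5 and KLF11), against 24.6% of all. The full element, TGACGTCA, which contains the core, was in 1 window, of KLF11, against 1.85% of all. The letters GGAATG, bound by the TEAD partners of YAP and TAZ, were in 1 window, of KLF7, against 14.0% of all. Windows of 1 gene share sequence where they overlap, all searches covered both strands, and a match is a description of letters and not a bound site.

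Values are probe set intensities on a linear scale as deposited, with each value below 62.6, the median of the whole table, raised to that floor before log2 was taken. Where a gene had several probe sets, the one of highest mean log2 intensity over the 4 arrays stands for it and is called its representative, and all 10 representatives were above the floor on all 4 arrays. Of all 36 KLF probe sets, 25 were above the floor on every array, 8 on some and 3 on none. Across the table, 19458 of 41097 probe sets with 1 symbol were above it on every array. So were the representatives of 10795 of 19775 genes. Intensities of different probe sets are not compared with each other, since probes bind with different strength. The scatter of a log2 difference among probe sets that read the same gene served as a yardstick. It was taken from 7501 well-measured probe sets, above 4 times the floor on all 4 arrays, of 3019 genes. As an SD it was 0.39 for siYT minus siNC, 0.54 for siYT+8Br-cAMP minus siNC+8Br-cAMP, 0.37 for siNC+8Br-cAMP minus siNC and 0.53 for siYT+8Br-cAMP minus siYT. This spread leaves out variation between cultures, and it was not taken at the lower levels that KLF2 and KLF5, among others, had on some arrays. In bulk RNA of this kind, fewer cells with a transcript and less transcript per cell cannot be told apart.

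Both siRNA targets read lower after knockdown, with log2 differences of -1.92 and -1.76 for YAP1 and of -2.38 and -2.61 for WWTR1, the gene for TAZ, without and with 8Br-cAMP. Of 11 granulosa markers, 7 were above the floor on all arrays, among them FOXL2 and CYP19A1, while the defining markers FSHR, AMHR2 and NR5A1 were below it on all 4 and AMH was not analysed here. Summed over the list, granulosa marker intensity was 105411 in siYT+8Br-cAMP, 25434.5 in siYT, 148484 in siNC+8Br-cAMP and 68886 in siNC, and its part in the KLF differences was not tested. A few bright probe sets dominate this sum, so it is not a measure of granulosa content. KRT18 alone read 10131, 10098.5, 69798 and 48635 in the same order. FOXL2 and GATA4 differed after knockdown by 0.26 and -0.15 with 8Br-cAMP and by 0.14 and 0.16 without it. With 8Br-cAMP both were higher, by 1.28 and 0.75 after knockdown and by 1.16 and 1.05 with control siRNA. Some other markers of this list moved more. After knockdown, CYP19A1 differed by 1.92 with and 5.29 without 8Br-cAMP, INHBA by 0.10 and -1.75, and KRT18 by -2.78 and -2.27. INHA differed by -0.67 and -0.09, and STAR by -0.16 and -0.07. With 8Br-cAMP, CYP19A1 differed by 1.78 after knockdown and by 5.16 with control siRNA. Of the theca, epithelial, endothelial and immune markers, INSL3 alone in the theca list and PECAM1 alone in the endothelial list were above the floor on all 4 arrays, and the summed intensity of each of these 4 lists was between 69.2 and 274 on the arrays. Some moved between groups: INSL3 differed by 1.95 for siYT+8Br-cAMP minus siNC+8Br-cAMP and by -1.17 for siNC+8Br-cAMP minus siNC, and the epithelial KRT19 by at least 1.56 for siNC+8Br-cAMP minus siNC, where siNC was below the floor. The immune CD14 was lower by at least log2 1.05 for siYT+8Br-cAMP minus siNC+8Br-cAMP, where siYT+8Br-cAMP was below the floor. Their part in the KLF differences was not tested. The ratio of 3′ to 5′ signal for ACTB was 1.35 on the siYT+8Br-cAMP array and 1.07 to 1.14 on the other 3, and for GAPDH 1.13 against 0.888 to 0.962. The part of this in the differences that use the siYT+8Br-cAMP array was not tested. Without that array the comparisons of siYT with siNC and of siNC+8Br-cAMP with siNC remain, with 4 and 5 KLF genes at 2-fold. In these comparisons 13.3% and 9.56% of all genes were past 2-fold in either direction.

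**Figure D1:**
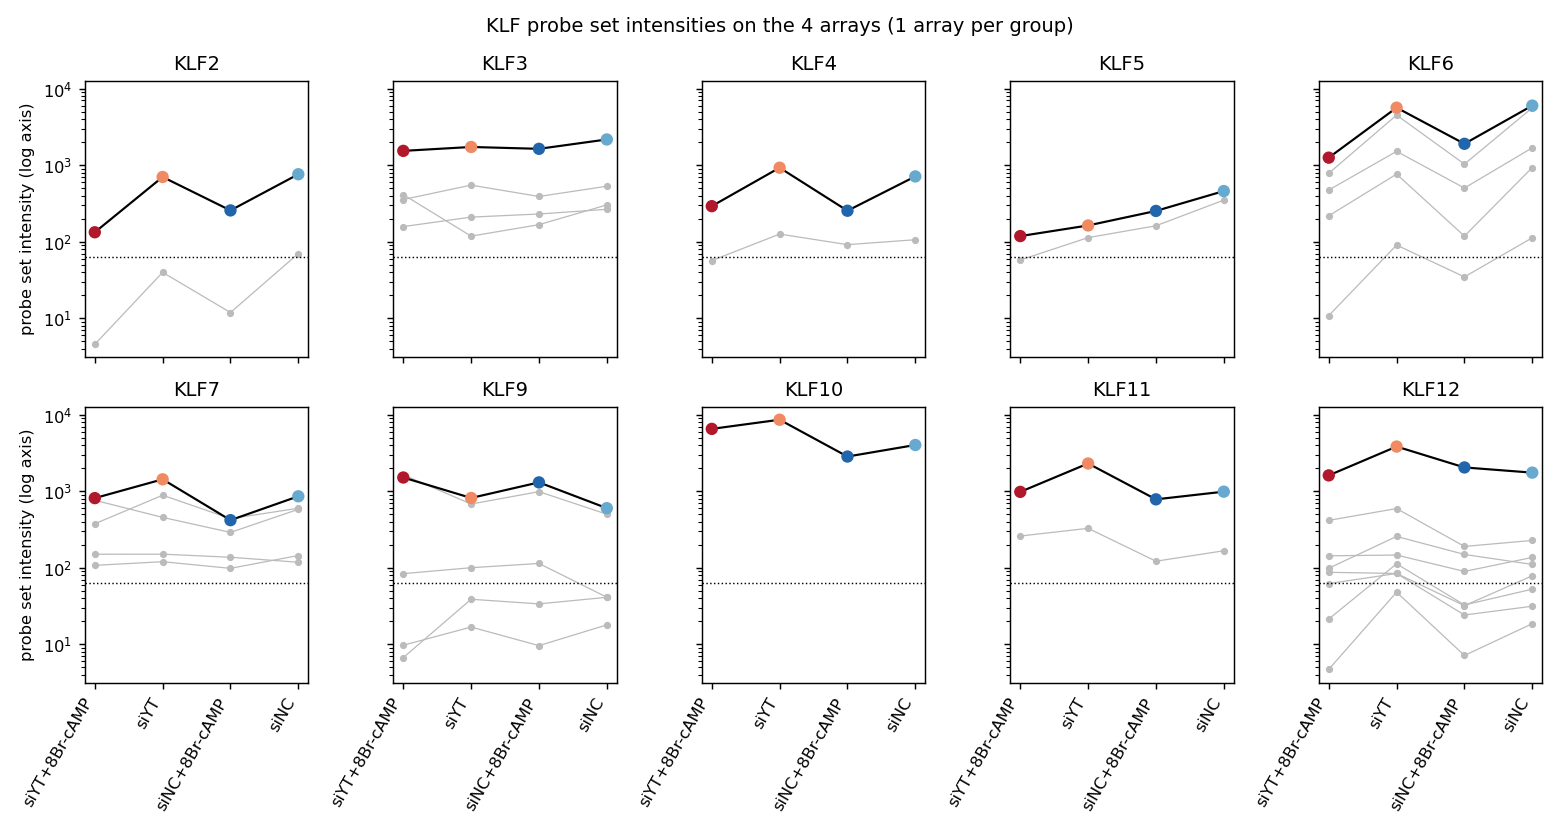
Probe set intensity on a log axis for the 10 KLF genes on the 4 arrays, with the representative probe set in colour and black, the other probe sets in grey and the floor of 62.6 as a dotted line; lines only join the points of 1 probe set. KLF2, KLF4 and KLF6 sit low on both 8Br-cAMP arrays, KLF9 sits high there, KLF5 is lowest on both siYT arrays and KLF10 highest on them.

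The comparison of 8Br-cAMP with untreated medium asked how cyclic AMP alters KLF transcripts, once after YAP/TAZ knockdown and once with control siRNA. The activator genes KLF2, KLF4 and KLF6 read lower by 2-fold or more each time, and KLF9, of the SIN3A-binding class, was higher in both. With control siRNA, 4 of the 10 genes were at least 2-fold lower (KLF2, KLF4, KLF6 and KLF7), where 5.22% of 14427 compared genes were, and 1 was at least 2-fold higher (KLF9), where 4.34% were. After knockdown, 5 were at least 2-fold lower (KLF2, KLF4, KLF6, KLF11 and KLF12), against 9.88% of all genes, and 0 were higher, against 5.00%. In both comparisons together, 3 were lower, against 2.08% of all genes, and 0 reached 2-fold higher in both, against 1.46%. By any amount, 9 of 10 were lower after knockdown and 8 of 10 with control siRNA, where 48.5% and 44.1% of all genes were lower. Among these, KLF3, KLF5 and KLF10 after knockdown and KLF11 with control siRNA were within the spread between probe sets. The median of the 10 log2 differences was -1.02 after knockdown and -0.68 with control siRNA, and the median over all genes was 0 in each. The 2 comparisons share no array. When each gene was read as the average of its probe sets in place of the representative, KLF2, KLF4 and KLF6 stayed past 2-fold after knockdown, and KLF6 alone with control siRNA. With the floor at the 75th percentile of the table the 8Br-cAMP arrays lay at the floor for KLF2 and KLF4, and their bounds were under 2-fold for KLF2 (-0.85 after knockdown and -0.97 with control siRNA) and for KLF4 with control siRNA (-0.87).

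KLF6, a widely expressed factor induced by injury and growth signals, read 1253 in siYT+8Br-cAMP against 5637 in siYT, and 1900.5 in siNC+8Br-cAMP against 5998 in siNC. Both 8Br-cAMP arrays were below both arrays without it. The gene was 4.50-fold lower with 8Br-cAMP after knockdown and 3.16-fold lower with control siRNA. Its other 3 probe sets above the floor on every array gave log2 differences between -2.52 and -1.68 after knockdown and between -2.98 and -1.75 with control siRNA, so that all 4 were past 2-fold in both comparisons. One of the 4 gave the -2.98, reading 118 in siNC+8Br-cAMP against 931 in siNC, and for siYT+8Br-cAMP minus siNC+8Br-cAMP it gave 0.88 where the others were 0.09 to 0.60 below 0. A further KLF6 probe set was above the floor on the 2 arrays without 8Br-cAMP alone, at 90.4 in siYT and 112 in siNC, so that its direction was the same and its size is only a bound.

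KLF2, which keeps endothelial cells and T cells quiescent, read 133 in siYT+8Br-cAMP against 701 in siYT, and 256 in siNC+8Br-cAMP against 761 in siNC. The order of the 4 arrays was that of KLF6, with siNC and siYT within the spread between probe sets of each other. KLF2 was 5.28-fold and 2.97-fold lower with 8Br-cAMP, after knockdown and with control siRNA. These values rest on 1 probe set, because the second was above the floor in siNC alone, at 70.0. KLF4, one of the factors that reprogram somatic cells to pluripotency, read 291 in siYT+8Br-cAMP against 926 in siYT, and 254 in siNC+8Br-cAMP against 712 in siNC. It was 3.18-fold and 2.81-fold lower, and both arrays with 8Br-cAMP were again below both without. The second KLF4 probe set, close to the floor, was lower in both comparisons as well, by at least log2 1.01 after knockdown, where siYT+8Br-cAMP was below the floor, and by a log2 difference of -0.21 with control siRNA.

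The remaining activators were lower with 8Br-cAMP by less. KLF5, a factor of proliferating epithelium, differed by -0.46 after knockdown and -0.86 with control siRNA on the log2 scale. Its second probe set gave -1.11 with control siRNA, and after knockdown siYT+8Br-cAMP was below the floor. KLF7, first described as a ubiquitous KLF and studied in neurons, differed by -0.82 and -1.04. Its 5 probe sets did not agree, with 4 of 5 lower in each comparison and a range of -1.24 to 0.74 after knockdown and of -1.04 to 0.22 with control siRNA. All 5 activators were thus lower with 8Br-cAMP in both comparisons by their representatives, with medians of -1.67 and -1.49. By any amount, 48.5% of all genes were lower after knockdown and 44.1% with control siRNA. KLF3, KLF10 and KLF11, of the other classes, were also lower in both.

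KLF9, which glucocorticoid and thyroid hormones induce and which takes part in progesterone action in the mouse uterus, went the other way. It read 1514 in siYT+8Br-cAMP against 818 in siYT, and 1308 in siNC+8Br-cAMP against 602 in siNC. Both 8Br-cAMP arrays were above both arrays without it, by 1.85-fold after knockdown and 2.17-fold with control siRNA. A second KLF9 probe set gave 2.40-fold and 1.97-fold, reading 1639.5 in siYT+8Br-cAMP, 682 in siYT, 989 in siNC+8Br-cAMP and 502 in siNC. Of the 3 other KLF9 probe sets, 2 were below the floor on all arrays. The third was low and above the floor on 3 arrays, at 84.0, 100.4 and 114 in siYT+8Br-cAMP, siYT and siNC+8Br-cAMP, which did not repeat the difference after knockdown. KLF9 is one of 3 members of its class here, and KLF10 and KLF11 were both lower with 8Br-cAMP. KLF10 differed by -0.40 after knockdown and -0.50 with control siRNA, and KLF11 by -1.23 and -0.33. The second KLF11 probe set gave -0.33 after knockdown, and the average of both was -0.78, under 2-fold.

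**Figure D2:**
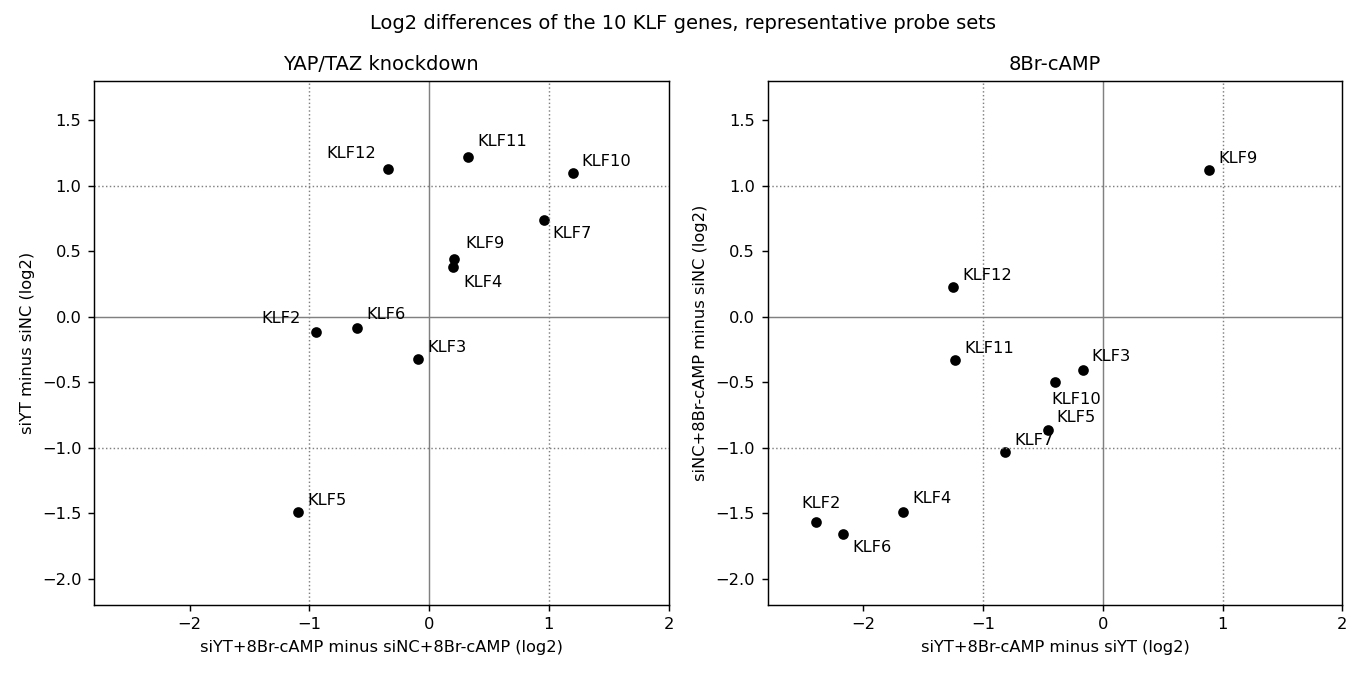
Log2 differences of the 10 representative probe sets, for YAP/TAZ knockdown on the left and for 8Br-cAMP on the right; each axis is 1 of the 2 comparisons of that factor, which share no array, and dotted lines mark 2-fold. KLF2, KLF4 and KLF6 lie past 2-fold lower on both axes of the 8Br-cAMP panel, and KLF5 and KLF10 lie past 2-fold on both axes of the knockdown panel in opposite directions.

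Knockdown was set against control siRNA, with and without 8Br-cAMP, to ask which KLF transcripts depend on YAP and TAZ. KLF5 was at least 2-fold lower and KLF10 at least 2-fold higher both times. With 8Br-cAMP, KLF10 was the 1 gene of 10 at 2-fold higher, against 6.74% of all genes, and KLF5 the 1 gene at 2-fold lower, against 9.48%. Without 8Br-cAMP, 3 genes were higher at that size (KLF10, KLF11 and KLF12), against 7.30% of all genes, and 1 was lower (KLF5), against 6.05%. In both knockdown comparisons together, 1 gene was higher, against 2.38% of all, and 1 was lower, against 2.81%. The median of the 10 genes was 0.06 with and 0.41 without 8Br-cAMP. These comparisons use the same 4 arrays as those of 8Br-cAMP, so each reading enters both.

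KLF5, which is known to interact with YAP and TAZ in epithelial cancer cells and is a substrate of the ubiquitin ligase WWP1, read 118 in siYT+8Br-cAMP against 252 in siNC+8Br-cAMP, and 163 in siYT against 459 in siNC. Both knockdown arrays were below both control arrays. KLF5 was 2.13-fold lower after knockdown with 8Br-cAMP and 2.81-fold lower without it. The second probe set read 113 in siYT against 349 in siNC, a 3.09-fold difference, and 57.7 in siYT+8Br-cAMP, below the floor, against 161 in siNC+8Br-cAMP, at least 2.58-fold. In the order of the 4 arrays, siYT+8Br-cAMP was lowest and siYT next, and these differed by less than the spread between probe sets, while siNC+8Br-cAMP and then siNC stood above them. The difference of differences, the knockdown difference with 8Br-cAMP minus that without, was 0.40, within its spread of 0.60. With the higher floor, KLF5 lay at the floor on 3 arrays and neither knockdown difference reached 2-fold.

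KLF10, also named TGF-beta inducible early gene and known to repress growth, read 6537 in siYT+8Br-cAMP against 2845 in siNC+8Br-cAMP, and 8612 in siYT against 4027 in siNC. Both knockdown arrays were above both control arrays, by 2.30-fold with and 2.14-fold without 8Br-cAMP. It was read by 1 probe set. KLF11, a relative of KLF10 that TGF-beta also induces, read 983 in siYT+8Br-cAMP against 785 in siNC+8Br-cAMP, and 2309 in siYT against 989 in siNC. The siYT array stood above the other 3, which differed from their neighbours by less than the spread. The second KLF11 probe set was higher after knockdown by 2.13-fold with and 1.96-fold without 8Br-cAMP, where the representative gave 1.25-fold and 2.34-fold. The size with 8Br-cAMP therefore depends on the probe set. All 3 genes of the SIN3A-binding class, KLF9 included (0.21 and 0.44), were higher after knockdown in both comparisons, with medians of 0.32 and 1.10. By any amount, 46.9% of all genes were higher with and 47.9% without 8Br-cAMP. The activators KLF4 (0.20 and 0.38) and KLF7 (0.96 and 0.74) were also higher in both. For KLF9 with 8Br-cAMP the difference was within the spread.

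KLF12, a repressor that works through CtBP, read 1613 in siYT+8Br-cAMP against 2049.7 in siNC+8Br-cAMP, and 3842 in siYT against 1753 in siNC. The siYT array was again above the other 3. Its log2 difference after knockdown was -0.35 with and 1.13 without 8Br-cAMP, of which the first was within the spread of 0.54, and it was the 1 gene of 10 with a difference of differences past 2-fold, at -1.48. Of all genes, 9.56% were past that size in this direction and 5.39% in the other, where 0 KLF genes were. The 4 KLF12 probe sets above the floor on all arrays were all higher in siYT than in siNC (0.10 to 1.38). With 8Br-cAMP 2 of them were higher and 2 lower after knockdown (-0.60 to 1.13), and the difference of differences was between -1.81 and 0.57, so the sign of the last is not shared by the probe sets, and the average over KLF12 probe sets did not reach 2-fold (-0.48). That average was 0.65 for siYT minus siNC and -0.55 for siYT+8Br-cAMP minus siYT, so both of these calls rest on the representative. One more probe set was above the floor on 3 arrays, 2 were above it in siYT alone, and 1 was above it on no array.

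KLF3, the other CtBP-binding factor, had the smallest range of the 10, at 1536 in siYT+8Br-cAMP, 1728 in siYT, 1634 in siNC+8Br-cAMP and 2165 in siNC. No neighbouring pair in this order of levels differed by more than the spread between probe sets. For siNC+8Br-cAMP minus siNC, which are not neighbours, KLF3 differed by -0.41, past the spread of 0.37. All 4 KLF3 probe sets were lower there (-0.86 to -0.20). One KLF3 probe set stood apart from the other 3, at 412 in siYT+8Br-cAMP against 167 in siNC+8Br-cAMP, and at 118 in siYT against 302 in siNC. It therefore went opposite ways after knockdown with (1.30) and without (-1.35) 8Br-cAMP. KLF7 differed by 0.96 with and 0.74 without 8Br-cAMP by its representative, whose name marks probes that may cross-hybridise. The other 4 KLF7 probe sets gave -0.22 to 1.39 and -0.35 to 0.56. KLF2 (-0.95 with and -0.12 without 8Br-cAMP), KLF6 (-0.60 and -0.09) and KLF4 (0.20 and 0.38) did not reach 2-fold after knockdown.

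**Figure D3:**
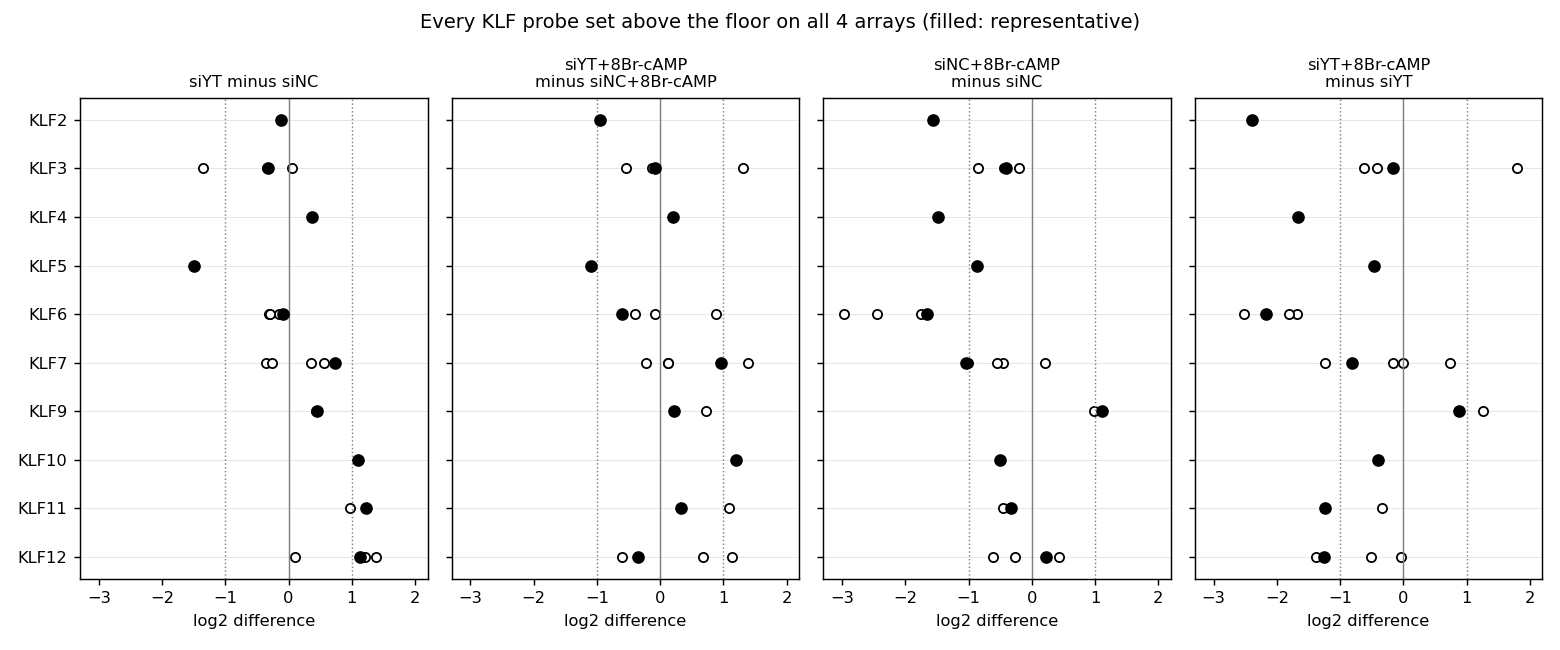
Log2 difference (x axis) in each of the 4 comparisons for the 25 KLF probe sets above the floor on all 4 arrays, by gene, with the representative filled and dotted lines at 2-fold. The 4 KLF6 probe sets lie past 2-fold lower in both 8Br-cAMP panels, while the probe sets of KLF3, KLF6, KLF7 and KLF12 spread to both sides of 0 in the panel of siYT+8Br-cAMP minus siNC+8Br-cAMP.

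Among the 25 KLF probe sets above the floor on all arrays, 21 were lower with 8Br-cAMP after knockdown and 20 with control siRNA. Knockdown left 14 higher and 11 lower both with and without 8Br-cAMP. Across all 19458 such probe sets, 45.9% and 49.3% were higher with 8Br-cAMP and 47.6% and 51.5% were higher after knockdown. Several probe sets read 1 gene, so they are not independent.

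The genes closest in pattern were found for the 4 KLF genes of largest range by the Euclidean distance of log2 levels centred over the 4 arrays, among 10794 other genes above the floor on all of them. For KLF2 these were STARD4, a carrier of cholesterol (distance 0.23), KLF6 (0.26) and BCL10, an adaptor of NF-kB signalling (0.29). For KLF6 they were BCL10 (0.15), LOC105379499 (0.18) and STARD4 (0.20). STARD4 read 313 in siYT+8Br-cAMP, 1325 in siYT, 539.7 in siNC+8Br-cAMP and 1569 in siNC. For KLF5 they were the mitochondrial nuclease EXOG (0.016), the replication fork protein TIPIN (0.061) and the kinetochore protein CENPW (0.12). TIPIN read 185 in siYT+8Br-cAMP, 264 in siYT, 405 in siNC+8Br-cAMP and 762 in siNC. For KLF4 they were GOLM2 (0.14), ARHGAP42 (0.18) and ARHGDIB (0.19). Some of these values were near the floor of 62.6. ARHGAP42 read 63.5 in siYT+8Br-cAMP and 63.9 in siNC+8Br-cAMP, and EXOG read 70.0 in siYT+8Br-cAMP. Between the 10 KLF genes themselves KLF2 and KLF6 were closest, followed by KLF11 and KLF12 at 0.55. Each distance rests on 4 points per gene.

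The rest of the family was weakly measured. Of the 7 other KLF genes, KLF13 alone was above the floor on all 4 arrays, and it differed by 0.16 and 0.68 after knockdown with and without 8Br-cAMP and by -0.21 and 0.31 with 8Br-cAMP after knockdown and with control siRNA. KLF15, a metabolic regulator, was below the floor in siYT+8Br-cAMP and read 128 in siYT, 198 in siNC+8Br-cAMP and 242 in siNC. KLF1, KLF8 and KLF17 were below the floor on all arrays. Over the 4 genes compared, 1 was at least 2-fold lower after knockdown with 8Br-cAMP and 2 with 8Br-cAMP after knockdown, where 9.48% and 9.88% of all genes were. These were KLF15 in both and KLF16 in the second, and each rests on siYT+8Br-cAMP, below the floor at 11.7 and 19.2. In the other 2 comparisons 0 were past 2-fold, against 13.3% of all genes for siYT minus siNC and 9.56% for siNC+8Br-cAMP minus siNC. For KLF16, below the floor in siYT+8Br-cAMP, the difference of differences was also past 2-fold (-1.19). Of the 9 SP genes 7 were compared, and 0 were past 2-fold in both comparisons of either factor. Of all genes, 2.38% were higher and 2.81% lower in both knockdown comparisons, and 1.46% and 2.08% in both 8Br-cAMP comparisons. SP4 was the 1 SP gene past 2-fold in any comparison. It differed by 1.52 after knockdown with 8Br-cAMP, where 6.74% of all genes were higher, and by -1.28 with 8Br-cAMP and control siRNA, where 5.22% were lower. The medians of the SP genes lay between -0.12 and 0.21 in the 4 comparisons. SP1 differed by 0.16 to 0.29 in the 4 comparisons, and SP3 by -0.87 and -0.88 with 8Br-cAMP and 0.26 in each knockdown comparison.

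Regulators and partners of KLF proteins were read from lists of general knowledge. In the ERK5 cascade, which acts through MEF2 factors on KLF2 and KLF4 in endothelium, 4 of 7 compared genes were at least 2-fold higher in siYT than in siNC and 0 lower, where 7.30% and 6.05% of all genes were. With 8Br-cAMP 1 was higher and 1 lower after knockdown, where 6.74% and 9.48% were. Its median was 0.12 with and 1.09 without 8Br-cAMP. The kinase MAP3K3 was past 2-fold in both, at 630 in siYT+8Br-cAMP against 250.5 in siNC+8Br-cAMP, and at 657 in siYT against 307.5 in siNC. With 8Br-cAMP, 0 genes of this list were higher and 1 lower after knockdown (5.00% and 9.88% of all genes), and 2 were higher and 0 lower with control siRNA (4.34% and 5.22%). Of 7 compared co-repressors, 0 were past 2-fold in either knockdown comparison, where 16.2% of all genes were with and 13.3% without 8Br-cAMP. The deacetylase HDAC1 alone among them was past it with 8Br-cAMP and control siRNA (1.17), where 4.34% of all genes were higher at that size. CTBP1 differed by -0.25 to 0.41 and the list's medians lay between -0.07 and 0.17. Of 4 co-activators, CREBBP was at least 2-fold lower with 8Br-cAMP in both comparisons, where 2.08% of all genes were. CREBBP read 94.5 in siYT+8Br-cAMP against 706 in siYT, and 137 in siNC+8Br-cAMP against 349.8 in siNC. KAT2B (-3.24 after knockdown and -0.72 with control siRNA) and EP300 (-0.99 and -0.37) were lower as well. KAT2A differed the other way, by 1.01 after knockdown and 0.42 with control siRNA. At 2-fold, 1 was higher and 2 lower after knockdown (5.00% and 9.88% of all genes), and 0 higher and 1 lower with control siRNA (4.34% and 5.22%). The list's medians with 8Br-cAMP were -1.95 after knockdown and -0.55 with control siRNA. In the knockdown comparisons, KAT2B was lower with 8Br-cAMP (-2.09) and CREBBP higher without it (1.01), where 9.48% and 7.30% of all genes were. Of 7 ubiquitin ligases, FBXW7, which marks KLF2 and KLF5 for degradation, was higher after knockdown in both, by log2 1.34 with and 1.55 without 8Br-cAMP, where the medians of the 7 were 0.24 and 0.17. It was the 1 ligase at least 2-fold higher each time (6.74% and 7.30% of all genes). Lower were SIAH1 with 8Br-cAMP (-1.61) and SMURF2 without (-1.63), where 9.48% and 6.05% of all genes were. In the 8Br-cAMP comparisons 0 ligases were 2-fold higher (5.00% and 4.34% of all genes). Lower were SIAH1 after knockdown (-2.23) and SMURF2 with control siRNA (-2.59), where 9.88% and 5.22% were.

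Of 22 genes described as KLF targets in other cells, 18 were compared. After knockdown, 1 was at least 2-fold higher and 6 lower with 8Br-cAMP, and 4 were higher and 4 lower without it. Of all genes, 6.74% were higher and 9.48% lower with 8Br-cAMP, and 7.30% and 6.05% without. Higher in both was CYP11A1, the first enzyme of steroid synthesis (1.95 and 3.70, with 81.4 in siNC, near the floor). Lower in both were CCNB1, a mitotic cyclin (-2.68 and -2.13), the smooth muscle gene TAGLN (-2.19 and -1.70), the lipid synthesis enzyme FASN (-1.13 and -1.07) and the sphingosine receptor S1PR1 (-1.02 and -1.31). With 8Br-cAMP, 2 were higher and 4 lower after knockdown (5.00% and 9.88% of all genes), and 4 were higher and 2 lower with control siRNA (4.34% and 5.22%). STAR, the cholesterol carrier, differed by 4.76 and 4.86, CYP11A1 by 2.10 and 3.85, and TAGLN by -1.75 and -1.26. Over the 18 genes the median log2 difference was -0.17 and 0.11 after knockdown and -0.19 in each 8Br-cAMP comparison, against 0 for all genes. The endothelial KLF2 target THBD was below the floor on all 4 arrays.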

How the data were processed

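RNA of KGN cells was labelled by 3′ in vitro transcription and hybridised to 4 Affymetrix arrays, 1 per group, per the labels' protocols. The deposited table holds linear intensity values per probe set. The submitters' processing notes name RMA and Affymetrix Expression Console; no version is named. These intensities reach down to 0.0806, differ in distribution between arrays and have a 2% trimmed mean of 500.1 on each, whereas RMA equalises distributions, so background correction and summary are unknown.

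Of 54675 probe sets, 41097 had 1 symbol, 1801 several and 11777 none here, and only those with 1 symbol were used. Gene identifiers matched 41043 and changed 0 symbols. Values below 62.6 were raised to that floor, log2 was taken, and each gene was represented by the probe set of highest mean log2 value. A gene was compared if any array exceeded the floor (14427 genes); 10795 exceeded it on all 4. Where an array lies at the floor, the fold is a lower bound. No array was normalized further and no test was made, since each group held 1 array; a call is a size of 2-fold, and the number of arrays limits the precision.

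The KLF genes, their classes and the gene lists were chosen with earlier results of these data known. The rule for named genes was all 10 KLF genes, the siRNA targets, list members past 2-fold in both comparisons of a factor (otherwise the 2 of highest level), and the 3 genes closest in pattern to the 4 KLF genes of largest range. KLF1, KLF8, KLF16, KLF17, SP4, KAT2A, KAT2B, EP300, SMURF2, SIAH1 and THBD were named after their values were seen. The rule did not cover the cell type markers, and those named were likewise picked from their lists with values seen. Alternatives were no floor, a floor at the 75th percentile (389), the mean over probe sets, leaving out probe sets that, by their suffix, several transcripts share, quantile normalization and cyclic loess (limma 3.58.1 in R 4.3.3), and a threshold of 1.5-fold. Promoters are from RefSeq and matched 8 of the 10 genes.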

Additional observations from a re-analysis of the deposited data

Results flagged for a closer look

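The representative of KLF12 had opposite signs in the 2 comparisons of each factor. After knockdown its log2 difference was -0.35 with and 1.13 without 8Br-cAMP, and with 8Br-cAMP it was -1.25 after knockdown and 0.23 with control siRNA. The -0.35 and the 0.23 lay within the spread between probe sets (0.54 and 0.37), and the 4 probe sets above the floor on all arrays split 2 higher and 2 lower in both of these comparisons. The difference of differences was -1.48 for its representative probe set. This difference was not tested, because each group held 1 array, and the cause was not tested. The other probe sets of KLF12 above the floor on all arrays gave -1.81, -0.25 and 0.57.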

How the results depend on the processing

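Precision is limited by 1 array per group, and no replicate could be left out. No paired analysis was possible because each group held 1 array. Of 285 differences of single KLF genes recomputed under the alternatives, 258 moved by less than the spread between probe sets, 27 moved by more, and 0 of those past 2-fold turned sign. Of 97 recomputed values that were past 2-fold as reported, 80 stayed past it and 95 kept their sign, the other 2 being 0: KLF5 for siYT+8Br-cAMP minus siNC+8Br-cAMP with the higher floor, and KLF2 for siYT+8Br-cAMP minus siYT without shared probe sets. The number of KLF genes past 2-fold for siYT minus siNC was 4 and stayed between 3 and 5 in all alternatives run, though KLF12 was under 2-fold (0.65) with the mean over probe sets and KLF5 with the higher floor. Of all genes, 13.3% were past 2-fold in this comparison as reported, 8.31% with the mean over probe sets and 32.8% at 1.5-fold. For siYT+8Br-cAMP minus siNC+8Br-cAMP the number of KLF genes was 2, against 1 with the floor at the 75th percentile and 1 without probe sets shared between transcripts. It was 5 at 1.5-fold and 3 under quantile normalization and cyclic loess, which add KLF7 (1.01 and 1.04). In the same order, the share of all genes was 16.2%, 12.3%, 16.7%, 37.8%, 16.1% and 16.2%. For siNC+8Br-cAMP minus siNC the number of KLF genes was 5, against 3 (KLF6, KLF7 and KLF9) with the floor at the 75th percentile. It was 1 (KLF6) with the mean over all probe sets and 2 without shared probe sets. Under quantile normalization it was 4, as KLF7 fell under 2-fold (-0.99). The share of all genes was 9.56%, 7.12%, 5.55%, 10.1% and 9.49% in that order. For siYT+8Br-cAMP minus siYT the number of KLF genes was 5, against 3 (KLF2, KLF4 and KLF6) with the mean over all probe sets. The share of all genes was 14.9% and 8.07%. For the difference of differences the number of KLF genes was 1, against 0 with the mean over all probe sets and 3 at 1.5-fold. The share of all genes was 15.0%, 7.99% and 36.4%. Without shared probe sets 7 KLF genes were left, as KLF4, KLF9 and KLF10 have no other. KLF2 then rests on a probe set below the floor on 3 arrays, and KLF7 read -0.22 for siYT+8Br-cAMP minus siNC+8Br-cAMP, against 0.96. The higher floor leaves KLF5 at the floor on 3 arrays, with -0.24 for siYT minus siNC.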
